A study of Mus musculus with 9 samples.

Results

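A set of 8 genes of arginine, nitric oxide and polyamine metabolism was followed through 9 RNA-seq libraries of mouse peritoneal macrophages. They were taken by name, with no threshold on their values, but earlier results of these data were known when they were chosen. They are the arginine transporter *Slc7a2*, the citrulline-recycling enzyme *Ass1* and the inducible nitric oxide synthase *Nos2*. The polyamine genes among them are *Odc1*, *Azin1*, *Srm*, *Sms* and *Sat1*. All 8 are among the 54059 genes of the deposited table, and all 8 passed the filter on low values that left 11450 genes for testing. The macrophages came from the peritoneum of 8-week-old C57BL/6 mice, were elicited with starch broth, kept by adherence and cultured overnight, and every group was treated with IMQ, an agonist of the endosomal receptor TLR7, for 4 h. One group of 3 libraries was wild-type. A second group of 3 came from mice with the labelled genotype SHP2lyz2-/-, called M-Shp2-/- here, in which a Cre driven from the *Lyz2* locus deletes a floxed *Shp2* gene in myeloid cells (monocytes, macrophages and granulocytes). The third group of 3 was wild-type and received the allosteric SHP2 inhibitor SHP099 at 10 µM for 2 h before IMQ at 10 µg/ml. Macrophages without IMQ were not analysed here, so no value below is a response to IMQ. The labels do not say that the 3 libraries of a group came from separate mice, and the p-values then measure only the spread between these libraries.

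Arginine enters macrophages through cationic amino acid transporters, among them CAT2, encoded by *Slc7a2*. Inducible nitric oxide synthase turns it into nitric oxide and citrulline, from which argininosuccinate synthase (*Ass1*) starts the way back to arginine. Ornithine decarboxylase (*Odc1*) makes putrescine from ornithine, which is itself made from arginine, spermidine synthase (*Srm*) and spermine synthase (*Sms*) extend it, spermidine/spermine N1-acetyltransferase (*Sat1*) marks polyamines for breakdown or export, and antizyme inhibitor (*Azin1*) protects ornithine decarboxylase from degradation. High *Nos2* is a textbook mark of classically activated mouse macrophages.

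The values are FPKM, fragments per kilobase of transcript scaled to the depth of the library, so that levels of different genes can be compared per length. Each library rested on 39839351 to 50978811 reads, and the members on 757 to 199900 reads in a library. *Ptpn11*, the gene that encodes SHP2, stood at 45.8, 44.0 and 40.0 FPKM in the wild-type libraries, at 18.6, 17.8 and 18.9 in the M-Shp2-/- libraries and at 43.0, 42.1 and 39.6 in the SHP099 libraries, so that the M-Shp2-/- libraries were apart from the rest as labelled. The limma difference of M-Shp2-/- from wild type in log2(FPKM + 1) was -1.19 (standard error 0.10, adjusted p = 0.0168). It was not past an adjusted p of 0.05 without M-Shp2-/- replicate 1 (0.196) or 2 (0.151) or wild-type replicate 1 (0.105) or 2 (0.125). A replicate block also ended the call (0.157). Macrophage markers were present throughout (the sum of *Adgre1*, *Csf1r*, *Cd68*, *Itgam*, *Mertk* and *Fcgr1* was 1661 to 2137 FPKM in the 9 libraries, most of it *Cd68*). *Lyz2*, the locus that drives the Cre, was listed at 4743 to 5407 FPKM in M-Shp2-/- and 7440 to 10228 in wild type. *Csf1r*, the receptor for macrophage growth factor and 1 of the 7 markers, rose in SHP099, from 58.2, 67.8 and 111 FPKM in wild type to 181, 211 and 206 (log2 difference 1.38, adjusted p = 0.0222 by limma), and was listed at 87.4, 71.8 and 176 in M-Shp2-/-. That call was lost without SHP099 replicate 1 (0.0760), 2 (0.116) or 3 (0.0774), with no filter on low values (0.0979) and with median-of-ratios scaling (0.0575). The other 6 did not pass, and 4 of them had lower values in SHP099: *Adgre1* (log2 difference -0.40), *Mertk* (-0.32), *Fcgr1* (-0.52) and *Cd68* (-0.14, with 1211 to 1271 FPKM against 1294 to 1498 in wild type). The part of *Csf1r* in the SHP099 values of the members was not tested. The RNA came from a mixed culture, in which fewer cells of a type and less RNA per cell cannot be told apart. M-Shp2-/- replicate 3 stood apart from the other 2 libraries of its group in several members and is given separately where that matters.

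**Figure D1:**
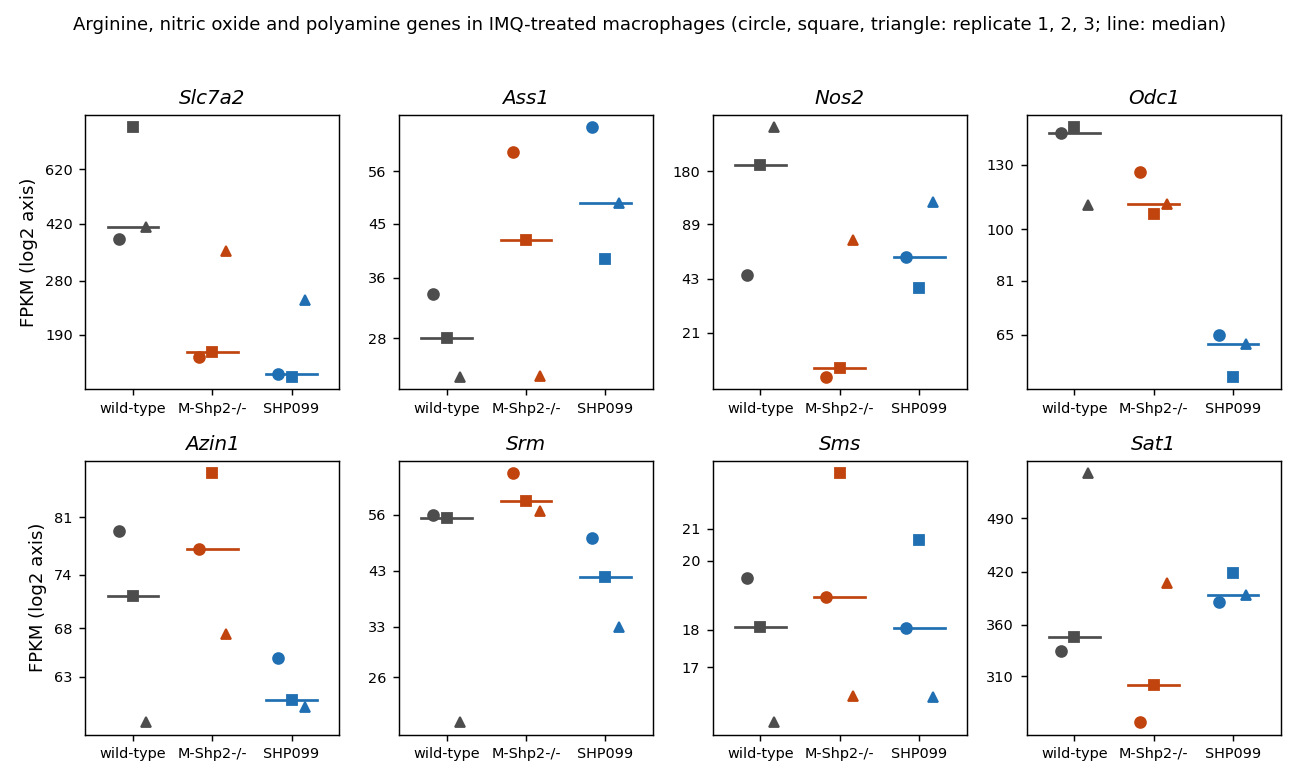
FPKM of each of the 8 genes (y axis, log2 scale, a range of its own in each panel) in the 3 groups (x axis). Each symbol is 1 library (circle, square and triangle for replicate 1, 2 and 3) and the line is the group's median. *Odc1* in the SHP099 libraries, 54.9 to 65.0 FPKM, lies below all other libraries, and *Nos2* in M-Shp2-/- replicate 3, 72.5 FPKM, lies far above the other 2 libraries of that group.

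Across the 9 libraries the polyamine acetyltransferase *Sat1* and the transporter *Slc7a2* were the most abundant members, with mean levels of 379 and 314 FPKM. *Odc1* (104), *Nos2* (97.6), *Azin1* (69.6), *Srm* (49.2) and *Ass1* (40.8) followed. *Sms* (18.5) was the lowest. The order differed by group. In wild type the mean of *Slc7a2* (541 ± 257 FPKM, SD, n = 3) stood above that of *Sat1* (413 ± 126), and that of *Nos2* (189 ± 140) above that of *Odc1* (136 ± 22.8), each by less than the larger SD. In M-Shp2-/- *Sat1* (327 ± 70.8) was highest, followed by *Slc7a2* (225 ± 104) and *Odc1* (114 ± 10.5), and *Nos2* (32.4 ± 34.7) came next to last. In SHP099 *Sat1* (399 ± 17.4) stood above *Slc7a2* (176 ± 59.0) by more than either SD, and *Ass1* (51.7 ± 14.3) above *Srm* (41.7 ± 8.63) by less than the larger SD. *Sms* was the lowest in each group.

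The comparison of M-Shp2-/- with wild type asks how loss of SHP2 in myeloid cells alters IMQ-treated macrophages, and that of SHP099 with wild type asks the same of its inhibition. Both use the same 3 wild-type libraries, so their values are set side by side and no agreement between them is read as a result. *Slc7a2* and *Odc1* fell in the SHP099 libraries. No member passed an adjusted p of 0.05 in M-Shp2-/- against wild type, and none passed when M-Shp2-/- was set against SHP099 directly. At the stricter thresholds of the study's methods, an adjusted p no higher than 0.005 together with a log2 difference of 1 or more, 0 of the 8 members were called in any of the 3 comparisons by limma, where 0.00873%, 0.166% and 0% of all genes tested were called. At an unadjusted p under 0.05, limma gave 2 members (*Slc7a2*, *Nos2*), 3 (*Slc7a2*, *Ass1*, *Odc1*) and 3 (*Odc1*, *Azin1*, *Srm*) in the 3 comparisons, and voom on the recovered reads gave 2, 3 and 3. The same holds of 10.5%, 26.7% and 12.6% of all genes tested.

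At an adjusted p of 0.05, 0 of 8 members were lower and 0 higher in M-Shp2-/- than in wild type, against 0.0873% and 0% of all genes tested. In SHP099 against wild type, 2 of 8 were lower and 0 higher, against 2.41% and 4.55%. Between M-Shp2-/- and SHP099 0 members were lower and 0 higher, against 0.0437% and 0.0262%. The members were chosen with earlier results of these data known, so that these shares give scale and no independent comparison. The libraries of the compared groups did not overlap for 2 of 8 members (*Slc7a2*, *Srm*) in M-Shp2-/- against wild type, where 19.1% of all genes did not overlap. They did not overlap for 3 (*Slc7a2*, *Ass1*, *Odc1*) in SHP099 against wild type, where the share was 34.6%, and for 3 (*Odc1*, *Azin1*, *Srm*) in M-Shp2-/- against SHP099, where it was 17.7%. The counts against wild type are near the shares over all genes, and the last is above it. The median log2 difference of the 8 members was -0.065, -0.087 and 0.19 in the 3 comparisons, and that of all genes tested was 0.15, 0.13 and 0.02. With median-of-ratios scaling, which sets the median gene near 0, the differences from wild type were lower by about that shift. It moved the share of higher genes among those past an adjusted p of 0.05 in SHP099 against wild type from 65.4% (521 higher, 276 lower) to 34.8% (200 higher, 375 lower), and between M-Shp2-/- and SHP099 from 37.5% (3 higher, 5 lower) to 71.4% (5 higher, 2 lower).

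**Figure D2:**
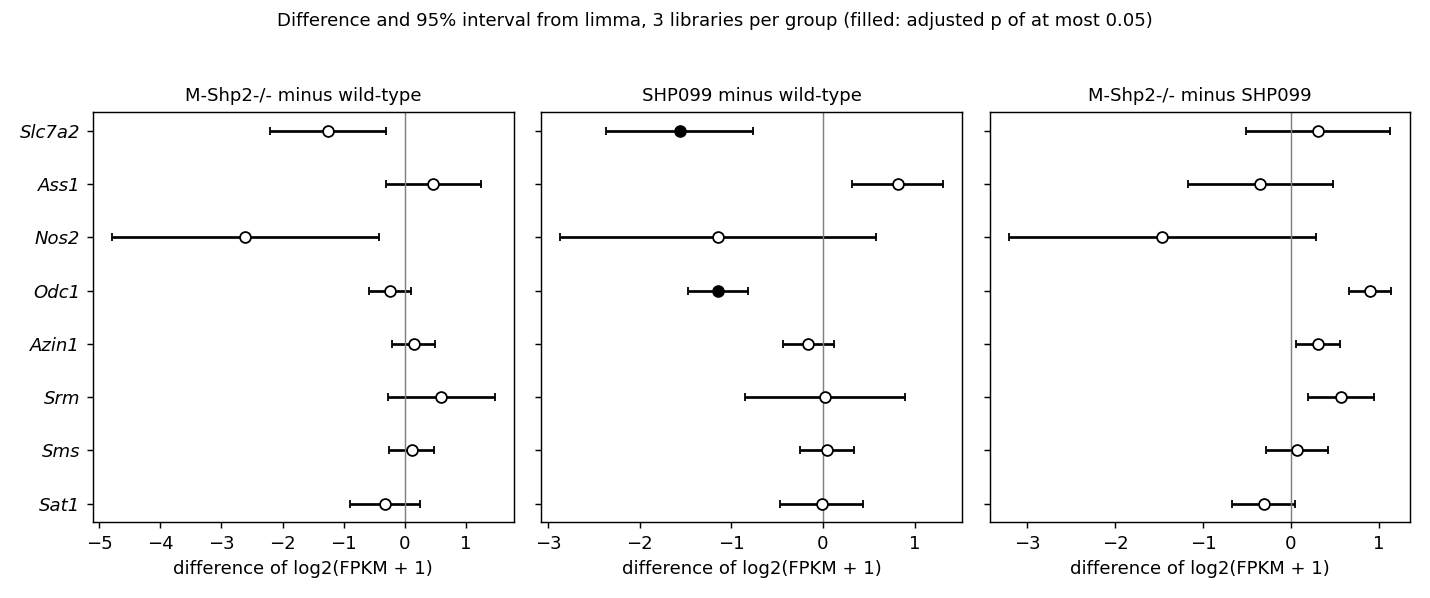
Difference of the group means in log2(FPKM + 1) from limma (x axis, its own range in each panel) for each gene (y axis) in M-Shp2-/- minus wild type (left), SHP099 minus wild type (middle) and M-Shp2-/- minus SHP099 (right). Bars are 95% intervals with 3 libraries per group, and filled points have an adjusted p of at most 0.05: *Slc7a2* (-1.57) and *Odc1* (-1.14) in the middle panel and none in the others.

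*Slc7a2* (ENSMUSG00000031596, chr8:40862396-40922308 of GRCm38, plus strand) was lower in SHP099 than in wild type. Its FPKM were 376, 837 and 411 in the wild-type libraries, 162, 168 and 345 in M-Shp2-/- and 143, 141 and 244 in SHP099. The M-Shp2-/- and SHP099 libraries all lay below all wild-type libraries, although M-Shp2-/- replicate 3 came close to the lowest of these. The log2 difference of SHP099 from wild type was -1.57 (95% interval -2.37 to -0.76, adjusted p = 0.0424 by limma, n = 3 per group), which left 33.8% of the wild-type level. That of M-Shp2-/- was -1.26 (-2.21 to -0.30, adjusted p = 0.455), and between both groups it was 0.31 (-0.51 to 1.13, adjusted p = 0.719). The difference between both groups was -0.043 without M-Shp2-/- replicate 3 and at most 0.57 with any 1 library left out. The SHP099 call was fragile: the adjusted p was 0.154, 0.178 and 0.0720 without SHP099 replicate 1, 2 and 3, and 0.0652 and 0.0529 without wild-type replicate 1 and 2. Over the other settings it was 0.0367 to 0.163. It was above 0.05 with no filter on low values (0.163), no trend (0.0566) and a replicate block (0.0644). A lincRNA on the opposite strand, Gm26584, shares 635 exon bases with *Slc7a2* at a mean level of 1.13 FPKM, and whether reads were counted by strand is not given in the sources used here.

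*Ass1* (ENSMUSG00000076441, chr2:31470207-31520672, plus strand), which begins the recycling of citrulline to arginine, was listed at 33.6, 28.0 and 23.9 FPKM in wild type, 60.6, 42.1 and 23.9 in M-Shp2-/- and 67.2, 38.9 and 49.2 in SHP099. The SHP099 libraries all lay above the wild-type ones, and M-Shp2-/- overlapped with both. The log2 difference of SHP099 from wild type was 0.82 (95% interval 0.32 to 1.31, adjusted p = 0.0612 by limma), just outside the threshold, and one of 0.0447 to 0.201 under other settings. M-Shp2-/- differed from wild type by 0.47 (-0.31 to 1.24, adjusted p = 0.545) and from SHP099 by -0.35 (adjusted p = 0.690). Single libraries moved both: the difference from wild type was 0.16 without M-Shp2-/- replicate 1 and 0.82 without replicate 3, and that from SHP099 was -0.65 and 0.0016.

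*Nos2* (ENSMUSG00000020826, chr11:78920787-78960254, plus strand) varied more than almost any gene within each group. It was listed at 45.1, 197 and 324 FPKM in wild type, 11.7, 13.1 and 72.5 in M-Shp2-/- and 57.1, 38.1 and 120 in SHP099. Both low M-Shp2-/- libraries lay below all libraries of the other groups, but M-Shp2-/- replicate 3 lay above wild-type replicate 1, and SHP099 overlapped with both groups. Its standard deviation on the log2 scale was 1.46, 1.42 and 0.82 in the 3 groups, at percentile 99.7, 99.5 and 99.1 among all genes tested. At that spread the log2 difference of M-Shp2-/- from wild type, -2.61 (95% interval -4.79 to -0.42), had an adjusted p of 0.465 by limma, and that of SHP099, -1.15 (standard error 0.73), one of 0.364. Single libraries moved both values: the M-Shp2-/- difference was -3.43 without M-Shp2-/- replicate 3 or wild-type replicate 1 and -2.02 without wild-type replicate 3, and the SHP099 difference was -1.97 without wild-type replicate 1 and -0.56 without wild-type replicate 3.

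*Odc1* (ENSMUSG00000011179, chr12:17544794-17551505, plus strand), the rate-limiting enzyme of polyamine synthesis, had the smallest adjusted p among the 8 genes. The stretch around its RefSeq transcription start, 250 bases before to 50 after, is shown for that reason. It lies at chr12:17544623-17544922 on the plus strand of GRCm38.p6, and capitals mark matches to the GC box (GGGCGG or its complement) and to TGACG, a core of the cAMP response element.

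Odc1: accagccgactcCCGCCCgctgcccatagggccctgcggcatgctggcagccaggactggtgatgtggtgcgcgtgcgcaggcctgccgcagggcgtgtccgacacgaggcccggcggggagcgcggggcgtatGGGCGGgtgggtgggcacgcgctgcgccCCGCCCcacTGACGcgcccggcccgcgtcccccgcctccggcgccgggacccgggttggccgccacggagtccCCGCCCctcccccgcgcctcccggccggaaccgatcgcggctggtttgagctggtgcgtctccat

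This window held 4 GC boxes and 1 TGACG, on either strand. A GC box was found in 35.7% and a TGACG in 20.8% of the 32851 promoter windows of this length, so that neither is rare. No match to the TATA box (TATAAA), the E-box (CACGTG), the STAT site (TTCNNNGAA), the C/EBP site (TTGCNNAA), the AP-1 site (TGANTCA) or the kappaB consensus, each searched on both strands, was found in it, where these letters were in 13.6%, 7.15%, 8.30%, 10.8%, 7.81% and 4.51% of all windows. Windows were held for 4 of the 8 genes (*Ass1*, *Odc1*, *Sat1*, *Sms*).

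The FPKM of *Odc1* were 148, 151 and 110 in wild type, 126, 106 and 111 in M-Shp2-/- and 65.0, 54.9 and 62.5 in SHP099. The SHP099 libraries were below every other library, and those of M-Shp2-/- overlapped with wild type. The mean fell from 136 ± 22.8 in wild type to 60.8 ± 5.28 in SHP099 (SD, n = 3 each). On the log2 scale this was -1.14 (95% interval -1.47 to -0.82, adjusted p = 0.0116 by limma), or 45.3% of the wild-type level. The adjusted p was 0.00515 to 0.0642 over the other settings and was above 0.05 with no filter on low values (0.0642) and without SHP099 replicate 2 (-1.07, 0.0659). M-Shp2-/-, at 114 ± 10.5 FPKM (SD, n = 3), differed from wild type by -0.24 (adjusted p = 0.518, and -0.39 to -0.16 with 1 library left out). It differed from SHP099 by 0.90 (95% interval 0.66 to 1.14, adjusted p = 0.0555, 0.0471 among the 8285 genes with a mean of at least 5 FPKM and up to 0.172 under other settings).

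*Azin1* (ENSMUSG00000037458), which encodes a catalytically inactive relative of ornithine decarboxylase, was listed at 79.2, 71.6 and 58.6 FPKM in wild type, 77.1, 86.8 and 67.4 in M-Shp2-/- and 64.9, 60.7 and 60.1 in SHP099. The SHP099 libraries all lay below those of M-Shp2-/-, by 0.31 on the log2 scale (adjusted p = 0.347 by limma). Relative to *Azin1*, *Odc1* was at 1.87, 2.11 and 1.88 in wild type, 1.64, 1.22 and 1.64 in M-Shp2-/- and 1.00, 0.904 and 1.04 in SHP099. The 3 groups did not overlap in this ratio, which is free of any scaling between libraries, and no test was run on it. The share of other gene pairs whose ratios separate the groups was not counted. Between M-Shp2-/- and wild type the libraries overlapped for each gene alone (adjusted p = 0.518 for *Odc1* and 0.641 for *Azin1* by limma).

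**Figure D3:**
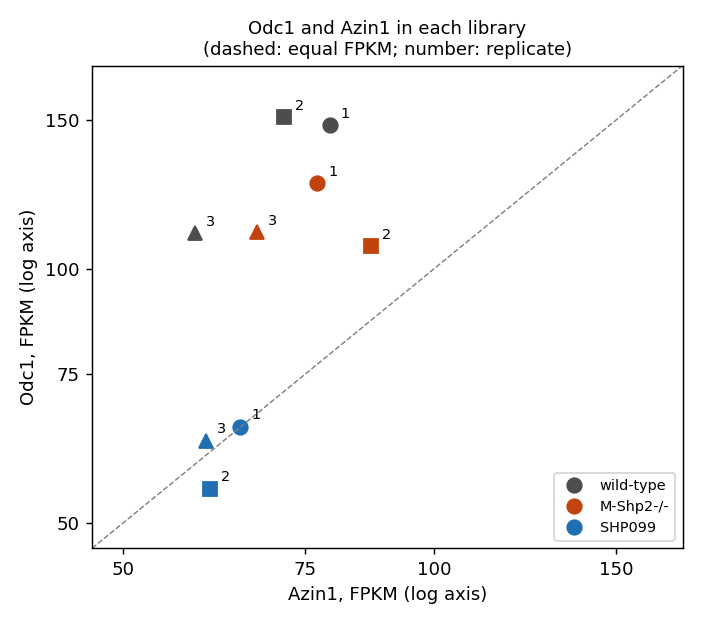
*Odc1* (y axis) against *Azin1* (x axis) in FPKM on log axes, 1 symbol per library with its replicate number and with colour for the group. The dashed line marks equal levels: the SHP099 libraries lie on or near it (ratios of 0.904 to 1.04), and all others lie above it (1.22 to 2.11).

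*Srm*, the spermidine synthase (ENSMUSG00000006442), was listed at 56.0, 55.3 and 21.01 FPKM in wild type, 68.2, 59.9 and 57.0 in M-Shp2-/- and 50.3, 41.8 and 33.0 in SHP099. All M-Shp2-/- libraries lay above those of both other groups, and wild-type replicate 3 was the lowest of all 9. The log2 difference of M-Shp2-/- was 0.60 from wild type (adjusted p = 0.520 by limma), but 0.14 without wild-type replicate 3, and 0.57 from SHP099 (adjusted p = 0.290). *Sms*, the spermine synthase (ENSMUSG00000071708), was level at 15.6 to 22.8 FPKM in all 9 libraries. Its log2 difference from wild type was 0.11 in M-Shp2-/- (95% interval -0.25 to 0.48) and 0.04 in SHP099 (-0.25 to 0.34), and both signs turn with median-of-ratios scaling (-0.04 and -0.09).

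*Sat1* (ENSMUSG00000025283), the acetyltransferase that opens polyamine breakdown, was listed at 333, 348 and 559 FPKM in wild type, 271, 302 and 406 in M-Shp2-/- and 385, 418 and 392 in SHP099. The groups overlapped, and the log2 differences from wild type were -0.32 in M-Shp2-/- and -0.01 in SHP099 (-0.16 with median-of-ratios scaling, 0.23 without wild-type replicate 3). The M-Shp2-/- difference was -0.082 without wild-type replicate 3 and -0.49 without M-Shp2-/- replicate 3, and neither passed the test. Set against *Odc1*, the first enzyme of polyamine synthesis, its level was 2.25, 2.30 and 5.07 times that of *Odc1* in wild type, 2.15, 2.84 and 3.67 times in M-Shp2-/- and 5.92, 7.62 and 6.28 times in SHP099. The 3 SHP099 libraries had the highest of these ratios, with wild-type replicate 3 the next. With *Sat1* at -0.01 in SHP099 against wild type, this largely restates the fall of *Odc1* (-1.14).

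Libraries with the same replicate number stood at the same end of all 3 groups for 6 of the 8 genes. In each group, the library numbered 3 had the highest *Nos2* and the lowest *Azin1*, *Srm* and *Sms*, and the library numbered 1 had the highest *Ass1* and the lowest *Sat1*. The labels do not say what the replicate number stands for, and this was seen after the values were, with no test. Over all genes, deviations of same-numbered M-Shp2-/- and wild-type libraries had r of -0.43 to 0.49, and of differently numbered ones -0.63 to 0.54. The share of all genes tested that stand at the same end in this way was not counted, so that 6 of 8 has no background. Some of these members also go together within groups (Pearson's r = -0.82 for *Nos2* and *Azin1*), so that the count is not one of independent genes.

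Between M-Shp2-/- and SHP099, 1 library decided the count. With all 3 M-Shp2-/- libraries 0 of the 8 members passed an adjusted p of 0.05 by limma. Without M-Shp2-/- replicate 3, 5 passed, 2 lower and 3 higher in M-Shp2-/-, where 7.89% of all genes were lower and 12% higher, while leaving out any of the other 5 libraries gave 0. *Nos2* (-2.28, adjusted p = 0.0170) and *Sat1* (-0.48, 0.00991) were then the lower ones and *Odc1* (0.92, 0.00420), *Azin1* (0.40, 0.0181) and *Srm* (0.62, 0.0474) the higher ones. For *Odc1*, *Azin1* and *Srm* the difference moved by less than 0.10. The library was singled out after its values were seen, and 2 M-Shp2-/- libraries then stand for the group.

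The markers of fibroblasts and mesothelium, cells of the peritoneal lining that could adhere with macrophages, were also highest in M-Shp2-/- replicate 3. The sum of the 7 markers was 549 FPKM there and 122.5 and 45.9 in the other 2 libraries of the group. It was 56.5, 272 and 36.3 in wild type and 334, 127 and 95.0 in SHP099. *Col1a1*, *Col1a2*, *Col3a1* and *Dcn* made up nearly all of it, whereas *Lum*, *Msln* and *Upk3b* were at or below 1.75 FPKM in every library, and 0 of the 4 that were tested passed an adjusted p of 0.05 in any comparison by limma. The part of these cells in the values of that library was not tested. The other lists were low, but some moved with the groups. The mast cell sum was 3.999 to 5.62 FPKM in wild type, 0.995 to 3.17 in M-Shp2-/- and 0.495 to 0.970 in SHP099. The eosinophil sum was 0.383 to 0.930, 0.280 to 0.727 and 0.0186 to 0.0368 FPKM in the same order, and that of the 3 B cell markers used was 0.923 to 1.34, 1.66 to 5.06 and 0.310 to 1.03. Of these 11 markers only *Kit* passed the filter, and its difference of SHP099 from wild type (-1.11) did not pass (adjusted p = 0.122 by limma). The part of these cells in the members' values was not tested. The sums were at most 2.98 FPKM for T cells and 1.77 for dendritic cells. The neutrophil sum, 35.2 to 96.6 FPKM, was nearly all *S100a8*, with *Ly6g*, *Mpo*, *Elane* and *Cxcr2* at or near 0 in every library.

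**Figure D4:**
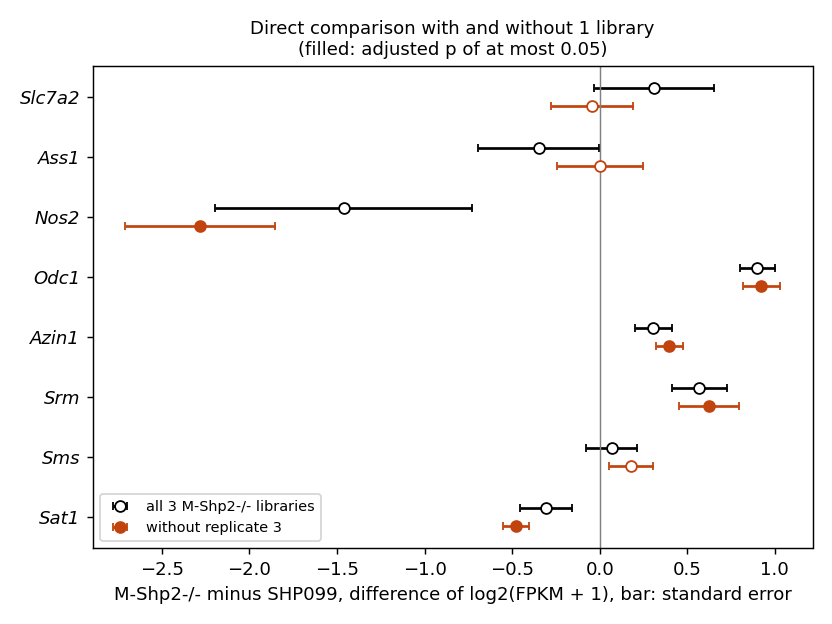
M-Shp2-/- minus SHP099 in log2(FPKM + 1) (x axis) for each gene (y axis), with all 3 M-Shp2-/- libraries (black) and without replicate 3 (orange). Bars are standard errors from limma and filled points have an adjusted p of at most 0.05: none with all libraries and 5 without replicate 3, with *Nos2* moving from -1.46 to -2.28.

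Genes around the 8 members were counted in 5 lists. Of 17 genes of arginine transport, citrulline recycling and the nitric oxide cofactor, 11 were tested and 0 passed an adjusted p of 0.05 by limma in any comparison. The most abundant were *Slc3a2*, the heavy chain of several amino acid transporters, at a mean of 916 FPKM over the 9 libraries, and *Slc7a1*, the constitutive arginine transporter, at 85.9. Of 13 genes of ornithine, proline, creatine and agmatine metabolism, 7 were tested and 0 passed, with *Oat*, the ornithine aminotransferase, at 59.1 FPKM and *Aldh18a1*, of proline and ornithine synthesis, at 28.7.

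Of 23 further polyamine genes, 20 were tested, and 1 rose and 1 fell in SHP099 against wild type, where 4.55% of all genes rose and 2.41% fell, so that the list's counts are near the background, while 0 passed in the other 2 comparisons. *Atp13a2*, a lysosomal polyamine exporter, was listed at 37.4, 45.0 and 39.8 FPKM in wild type, 75.3, 68.8 and 63.6 in M-Shp2-/- and 77.3, 75.1 and 77.2 in SHP099. Its libraries in both other groups lay above all wild-type libraries, and the log2 difference was 0.90 in SHP099 (adjusted p = 0.00759 by limma) and 0.75 in M-Shp2-/- (adjusted p = 0.184, 0.0475 with all 9 libraries in 1 fit and up to 0.320 under other settings). The SHP099 call held without any 1 library (0.00910 to 0.0448). *Smox*, the spermine oxidase, fell by 0.50 in SHP099 (adjusted p = 0.0438), from 25.7, 22.9 and 28.6 FPKM to 19.4, 17.02 and 17.06. That call was lost without any 1 of SHP099 replicates 1 to 3 (0.119, 0.189, 0.120) or wild-type replicates 1 and 2 (0.0985, 0.0529), and the adjusted p was 0.0356 to 0.107 over the other settings. The most abundant of the list, the antizyme *Oaz1* (543 FPKM) and *Eif5a* (429 FPKM), the protein that is hypusinated from spermidine, did not pass.

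Of 13 markers of alternative activation of macrophages, 9 were tested and 3 fell in SHP099 against wild type, against 2.41% of all genes, and 0 passed in the other 2 comparisons. The median log2 difference of the 9 in SHP099 was -1.32, and 0.13 over all genes tested. The list was chosen with earlier results of these data known, so that neither value is an independent comparison with all genes. *Mrc1*, the mannose receptor, was listed at 61.5, 43.8 and 43.5 FPKM in wild type, 59.8, 71.2 and 19.4 in M-Shp2-/- and 10.3, 10.1 and 9.79 in SHP099. It fell by 2.18 in SHP099 (adjusted p = 0.00289 by limma) and kept its call without any 1 library (0.00219 to 0.0173). *Retnla*, a secreted effector protein, fell by 2.67 (adjusted p = 0.0390), from 7.16, 20.7 and 2.83 FPKM to 0.267, 0.294 and 0.610. At these low levels the size depends on the scale: it was -4.02 with a pseudocount of 0.1, -4.34 with voom, and -2.02 without wild-type replicate 2. *Chil3*, a chitinase-like protein, fell by 1.32 (adjusted p = 0.0322), from 103, 221 and 127 FPKM to 56.7, 57.5 and 55.3. Both calls were lost without SHP099 replicate 1 (0.134 for *Retnla*, 0.115 for *Chil3*), 2 (0.165, 0.136) or 3 (0.0997, 0.0955), and that of *Retnla* also without wild-type replicate 1 (0.0898). Over the other settings the adjusted p was 0.0242 to 0.155 for *Retnla* and 0.0270 to 0.129 for *Chil3*. *Tgm2* (567 FPKM) and *Stat6* (155 FPKM) were the most abundant of the list and did not pass. The mast cell and eosinophil sums also lay lower in each SHP099 library than in any wild-type library, and their part in these values was not tested.

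Of 11 transcription factors known to act on genes of these pathways, all 11 were tested and 0 passed in any comparison by limma. *Irf1*, an activator of *Nos2*, had group means of 532 FPKM in wild type, 257 in M-Shp2-/- and 581 in SHP099, where the wild-type mean rests on replicate 3 (1062 FPKM against 249 and 286). *Cebpb*, a factor of inflammatory genes, was at 430, 305 and 283 FPKM.

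The genes whose log2 pattern over the 9 libraries was most like that of a member were named as a description, and the libraries share their groups, so that any gene that differs between groups can be alike. For *Nos2* these were *Sipa1l1* (Pearson's r = 0.98), *Cp* (0.97) and *Stat3* (0.96). *Slc7a2* was nearest to Gm26584 (0.97), which overlaps its exons, and to *Jak2* (0.97) and *Rcl1* (0.95). *Odc1* was nearest to *Dab2* (0.97), *Fos* (0.96) and *Rai14* (0.96).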

How the data were processed

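The authors sequenced poly(A) RNA as paired ends and processed it with CASAVA 1.8, HISAT2 2.0.4 and HTSeq 0.9.1, and the values were deposited as FPKM for 54059 genes, 1 column per library. The tool that made FPKM, the build, the annotation and the strand setting are not given in the sources used here. Symbols and positions came from GENCODE M21 (GRCm38), which lacks 353 of the genes. In 4804 of 5235 genes the spans of the authors' assembly equal those of M21. FPKM times transcript length gave whole reads within 0.05 for over 96% of low values (10% by chance), from which depth was read. Counting error was not compared with the spread between libraries.

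Groups came from the titles, and treatments from the paper's methods and, for the SHP099 experiment, from its figure legend. Genes with a mean of at least 1 FPKM over the 9 libraries were tested with limma 3.58.1 (lmFit, eBayes with trend) in R 4.3.3 on log2(FPKM + 1), on the 6 libraries compared, with Benjamini-Hochberg adjustment over all 11450 genes. Differences on this scale understate changes of low genes. The limma fit, and not the other steps, was tested on simulated data. Alternatives were a pseudocount of 0.1, no filter, a mean of at least 5 FPKM, median-of-ratios scaling, no trend, 1 fit of all 9 libraries, a replicate block, voom on recovered reads, an adjusted p of 0.05, and each library left out.

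The members and lists were chosen with earlier results of these data known. Named were all members, the list genes past an adjusted p of 0.05 in any comparison (at most 6 a list), the 2 most abundant genes of each list, and the 3 genes nearest in pattern to *Nos2*, *Slc7a2* and *Odc1*. The marker *Csf1r* was named after its values were seen. Further genes are not reported here. Promoter sequence came from RefSeq (GRCm38.p6). Python 3.11.15 and matplotlib 3.10.9 drew the plots.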

Additional observations from a re-analysis of the deposited data

How the results depend on the processing

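Of 448 recomputed differences of single genes, 381 kept their direction and side of the threshold, 44 lost a call, 8 gained one and 15 changed sign, and the cause was not tested. Median-of-ratios scaling turned *Azin1* (-0.011) and *Sms* (-0.037) in M-Shp2-/- and *Srm* (-0.11) and *Sms* (-0.094) in SHP099 against wild type. Leaving out 1 library turned M-Shp2-/- against wild type for *Sms* (-0.0086 to 0.22). It turned SHP099 against wild type for *Srm* (-0.43 to 0.26), *Sms* (-0.042 to 0.12) and *Sat1* (-0.15 to 0.23), and M-Shp2-/- against SHP099 for *Slc7a2* (-0.043 to 0.57), *Ass1* (-0.65 to 0.0016) and *Sms* (-0.052 to 0.18).

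The genes called in M-Shp2-/- against wild type numbered 1, and 0 with no filter on low values, 3 with median-of-ratios scaling, 0 with no trend, 2 with all 9 libraries in 1 fit, 9 at an adjusted p of 0.05 and 0 in every fit with 1 library left out. Those past an adjusted p of 0.05 at any size numbered 10, and 6 with no trend and 1 to 8 with 1 library left out. In SHP099 against wild type 19 genes were called, and 0 with no filter, 4 with no trend, 2 with voom, 197 at an adjusted p of 0.05 and 0 to 26 with 1 library left out. Genes past an adjusted p of 0.05 at any size numbered 797, and 74 with no filter and 47 to 1273 with 1 library left out. The 2 members that passed became 0 with no filter, 1 with no trend and 0 to 2 with 1 library left out. Between M-Shp2-/- and SHP099 0 genes were called, and 1 with all 9 libraries, 7 at an adjusted p of 0.05 and 0 to 159 with 1 library left out. The 8 genes past an adjusted p of 0.05 became 3 with no filter, 17 at a mean of at least 5 FPKM, 3 with all 9 libraries and 0 to 2277 with 1 library left out, and the 0 members became 1 at a mean of at least 5 FPKM and 0 to 5 with 1 library left out. The highest counts between M-Shp2-/- and SHP099 came without M-Shp2-/- replicate 3.

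In fits that added a replicate block, the called genes became 0 in M-Shp2-/- and 0 in SHP099 against wild type, and those past an adjusted p of 0.05 became 2 and 591, and 0 between M-Shp2-/- and SHP099. Under this replicate block 2 members passed in SHP099, *Odc1* and *Ass1* (adjusted p = 0.0447 by limma), while *Slc7a2* (0.0644) did not. The block also ended the calls of *Ptpn11* in M-Shp2-/- (0.157) and of *Smox* (0.0601) and *Retnla* (0.0552) in SHP099, and changed no other call of a gene named with one. Same-numbered libraries did not deviate together in every pair. Between M-Shp2-/- and wild type their r was -0.43 to 0.49, against -0.63 to 0.54 for differently numbered libraries. Between SHP099 and wild type it was -0.090 to 0.45, against -0.40 to 0.49. Between M-Shp2-/- and SHP099 it was -0.047 to 0.18, against -0.27 to 0.20. The labels do not say what the number stands for, so that the libraries were not treated as paired. All members had at least 757 reads in every library, and the part of depth in their values was not tested.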
